A study of Mus musculus with 12 samples.

Results

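The genes described here make prostaglandins, break them down or receive their signal. The group was a fixed list of 10 mouse genes: Ptgs1, Ptgs2, Ptges, Ptges2, Ptgis, Hpgd, Ptger1, Ptger2, Ptger3 and Ptger4. Members were taken as probe sets annotated with exactly 1 of these symbols. That gave 9 of the 10 genes, each with 1 probe set, of 19935 genes named by 1 symbol on the array. Ptgs1 was not analysed here, since the probe annotation used lists no probe set for it.

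Gene expression was measured on 12 Affymetrix arrays, with 3 arrays in each of 4 groups of male mice aged 8 to 10 weeks, hybridised with RNA from what the labels call colon epithelial cells. TG DSS mice carried the Villin-Claudin-2 transgene (Cl-2TG), in which the villin promoter places the tight junction protein claudin-2 in gut epithelium, and drank 4% w/v dextran sulfate sodium (DSS), a polymer that injures the colon lining, for 10 days. WT DSS mice were wild-type littermates given the same DSS. TG water and WT water mice were transgenic and wild-type mice on plain drinking water. The labels do not say whether each array came from its own mouse, so a p-value here reflects only how these samples vary, and part of that may be technical.

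Prostaglandins are lipid signals made from arachidonic acid that phospholipases release from membranes. The cyclooxygenases, Ptgs1 and the inducible Ptgs2, turn it into a common precursor, and terminal synthases such as Ptges, Ptges2 and Ptgis turn that precursor into prostaglandin E2 or prostacyclin. Hpgd begins the breakdown of prostaglandin E2, and the receptors EP1 to EP4, encoded by Ptger1 to Ptger4, carry its signal into cells. In the colon, prostaglandin E2 is known for its part in the repair of injured epithelium and in inflammation.

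Promoter sequence is shown for Ptgs2 and Ptges, the synthesis genes with the widest range over the arrays, and for Hpgd, the breakdown gene, which had its lowest value on the array where both were highest. The sequences come from RefSeq on GRCm38.p6, where 7 of the 9 measured genes had an entry and Ptgis and Ptger1 had none. Each runs 5′ to 3′ from 250 bases before to 30 bases after the annotated start, and positions count from that start. Capitals mark matches, on either strand, to the GC box (GGGCGG), the CRE half-site (TGACG), the E-box (CACGTG), the C/EBP motif (TTGCNNAA), the TATA box (TATAAA) and the NF-kB consensus. The windows are chr1:150099781-150100060 (plus strand) for Ptgs2, chr2:30903268-30903547 (minus strand) for Ptges and chr8:56294302-56294581 (plus strand) for Hpgd.
Ptgs2: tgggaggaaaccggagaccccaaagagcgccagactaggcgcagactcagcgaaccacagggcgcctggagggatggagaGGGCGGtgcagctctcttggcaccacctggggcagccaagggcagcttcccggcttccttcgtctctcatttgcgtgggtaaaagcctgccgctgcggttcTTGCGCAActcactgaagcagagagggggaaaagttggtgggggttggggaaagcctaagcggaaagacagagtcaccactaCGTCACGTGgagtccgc
Ptges: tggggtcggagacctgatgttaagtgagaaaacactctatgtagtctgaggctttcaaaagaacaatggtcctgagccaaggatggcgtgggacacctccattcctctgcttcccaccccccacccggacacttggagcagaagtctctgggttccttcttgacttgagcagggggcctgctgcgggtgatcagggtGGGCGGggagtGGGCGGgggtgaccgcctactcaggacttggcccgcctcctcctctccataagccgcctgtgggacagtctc
Hpgd: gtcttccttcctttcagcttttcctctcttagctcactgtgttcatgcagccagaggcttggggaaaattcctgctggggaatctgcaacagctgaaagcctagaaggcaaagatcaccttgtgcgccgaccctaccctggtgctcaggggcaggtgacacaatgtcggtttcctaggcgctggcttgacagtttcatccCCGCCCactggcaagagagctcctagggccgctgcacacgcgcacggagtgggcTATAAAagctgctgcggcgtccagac

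The Ptgs2 window held 1 GC box at -170 to -165, 1 C/EBP match at -69 to -62, and a CRE half-site at 14 to 18 that overlaps an E-box at 17 to 22. Ptges held 2 GC boxes, at -53 to -48 and -42 to -37, and none of the other motifs. Hpgd held 1 GC box at -50 to -45 and a TATA box at 5 to 10. Over all 32851 promoter windows of this length, 34.7% held a GC box, 19.9% a CRE half-site, 13.1% a TATA box, 10.4% a C/EBP match, 7.94% an NF-kB consensus and 6.79% an E-box. A match is a stretch of letters and was not tested as a binding site.

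All values below are log2 signals centred on their probe set's 12-array median, so they compare arrays and give no absolute level. Levels of different genes cannot be set against each other, and whether epithelial or other markers are present at all cannot be read from these values. The 3 WT DSS arrays stood apart from the rest and from one another, with 677, 3795 and 1035 of the 28815 probe sets more than 1 log2 unit from their median in WT DSS replicates 1, 2 and 3. TG DSS replicates 1 to 3 had 285, 53 and 90 such probe sets, and the 6 water arrays had 22 to 91. Taking the 10 epithelial marker genes together, WT DSS replicate 2 had the median -2.13, and the other 11 arrays lay between -0.19 and 0.11. Cldn2, the gene the transgene carries, read 0.36, 0.18 and -0.02 in TG water replicates 1 to 3 and -0.04, 0.02 and 0.11 in WT water replicates 1 to 3. The TG minus WT difference was 0.14 ± 0.44 (SE from the spread of all 4 groups, 3 arrays each, limma adjusted p = 1), so on water the signal of this gene did not separate the genotypes. Under DSS, Cldn2 read -0.24, 0.27 and 0.15 in TG and -0.53, -2.28 and -0.12 in WT, so the groups overlapped. Its lowest value, in WT DSS replicate 2, was on the array with the epithelial median of -2.13. TG minus WT was 1.04 ± 0.44 (95% interval 0.060 to 2.01, limma unadjusted p = 0.0395, limma adjusted p = 0.292). In WT its DSS minus water difference was -1.01 ± 0.44 (limma adjusted p = 0.315), with no overlap, where 16.1% of all genes did not overlap.

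In WT colon under DSS, Ptgs2 stood 9.71-fold above water and was high on every DSS array, Ptges was high on 2 of the 3, and the other 7 genes differed by less than 1 log2 unit. None of the 9 genes passed the test across all genes. The test was limma on all 12 arrays, with p-values adjusted by Benjamini-Hochberg over 19935 genes and a threshold of 0.05. In this fit each SE and interval draws on the spread of all 4 groups. In this comparison 0.171% of all genes passed. An unadjusted p under 0.05 was reached by 2 of the 9, Ptgs2 and Ptger3, against 15.2% of all genes. The median difference of the 9 was 0.15, beside -0.04 over all genes.

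Ptgs2, the inducible cyclooxygenase, read 3.34, 5.12 and 1.17 in WT DSS replicates 1 to 3, against 0.19, -0.33 and -0.05 in WT water replicates 1 to 3. Every WT DSS array lay above every WT water array, and the DSS arrays themselves spread over about 4 log2 units. It was the only member of the 9 whose WT groups did not overlap, where 16.1% of all genes had groups that did not overlap. Its SD was 1.98 in the WT DSS arrays and 0.26 in the WT water arrays. The difference was 3.28 ± 0.81 (SE, 95% interval 1.47 to 5.09, limma adjusted p = 0.117), and the interval does not give the precision of these 2 groups alone. Without WT DSS replicate 3, the lowest of the DSS arrays, it was 4.30 ± 0.58 and passed (limma adjusted p = 0.0121), and without replicate 2 it was 2.32 ± 0.62 (limma adjusted p = 0.138). Over all alternative settings its adjusted p lay between 0.0121 and 0.574.

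Ptges, the inducible synthase that makes prostaglandin E2 from the cyclooxygenase product, read 1.82, 3.79 and -0.48 in WT DSS replicates 1 to 3, against 0.03, 0.03 and -0.02 in WT water replicates 1 to 3. WT DSS replicates 1 and 2 lay above all water arrays, while replicate 3 had the lowest value of the 12 arrays. The difference was 1.70 ± 0.80 (SE; 95% interval -0.091 to 3.49; limma adjusted p = 0.352). It became 2.79 ± 0.48 without WT DSS replicate 3, which passed (limma adjusted p = 0.0259), where 575 of all genes passed. Without replicate 2 it was 0.66 ± 0.53 (limma adjusted p = 0.732). These were the ends of its range over all settings. The order of the 3 arrays was the same for both genes, but replicate 3 was above the water arrays for Ptgs2 and below them for Ptges.

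**Figure D1:**
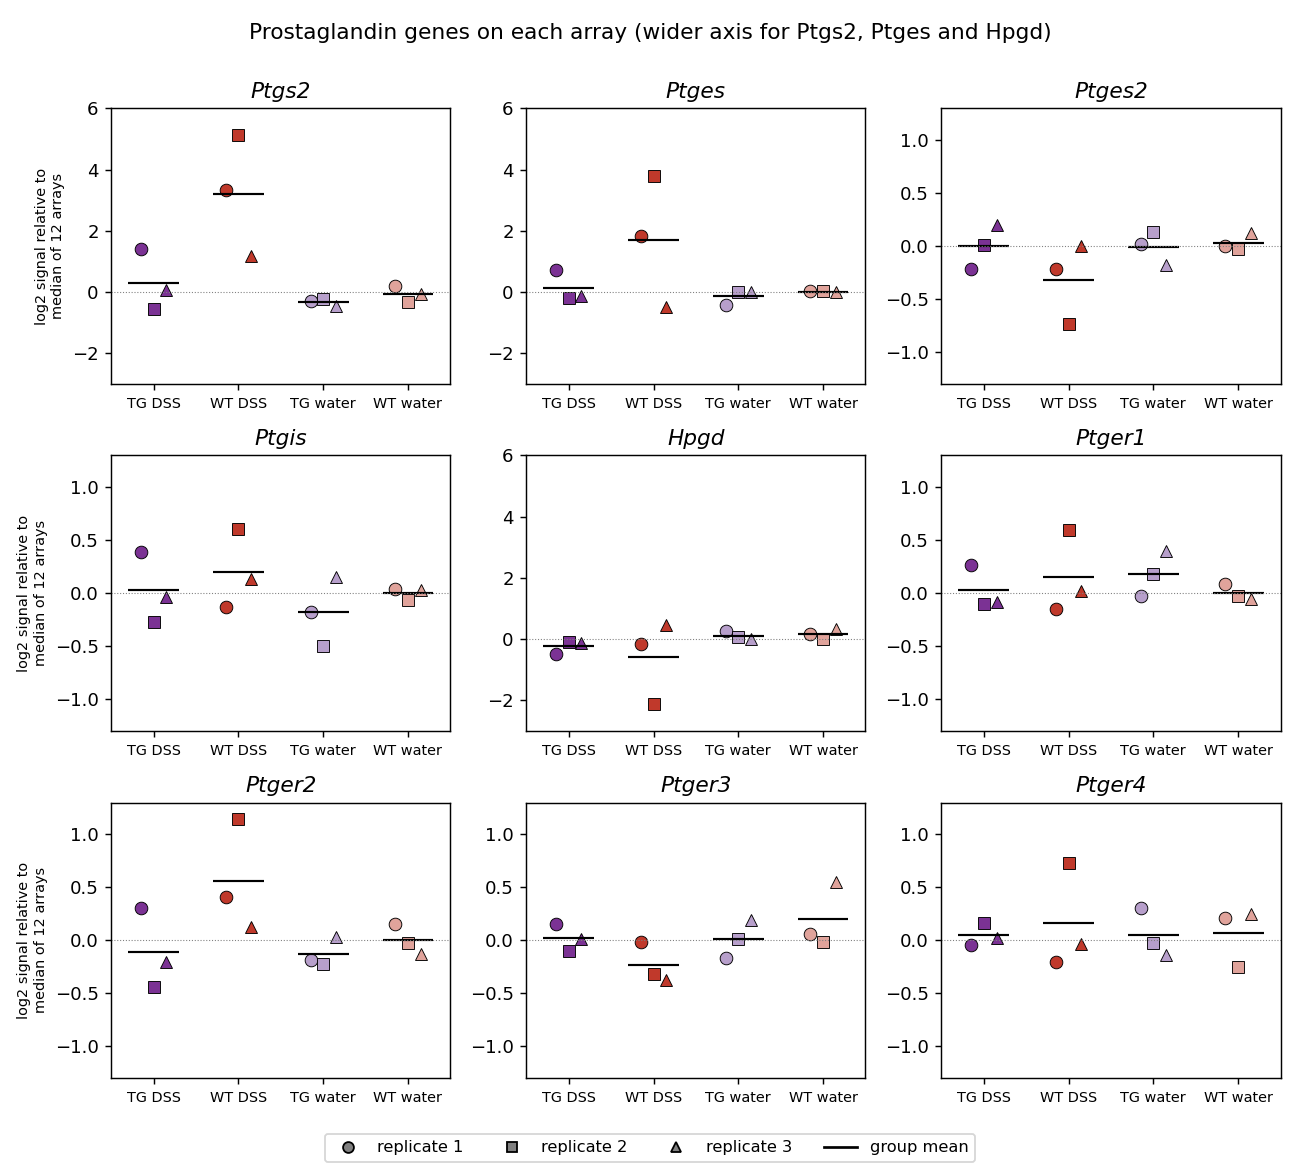
Log2 signal of the 9 measured genes centred on each gene's median (vertical axis) in the 4 groups, with 1 symbol per array and a line at the group mean. Ptgs2 stands at 1.17 to 5.12 in the WT DSS arrays, above the water arrays, while the 6 genes on the narrower axis stay within about 1.2 log2 units of their median.

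Ptges2, a second enzyme able to make prostaglandin E2, read -0.21, -0.74 and 0.00 in WT DSS replicates 1 to 3, against 0.00, -0.02 and 0.13 in WT water replicates 1 to 3. Its difference was -0.35 ± 0.18 (limma adjusted p = 0.385), and the groups overlapped. It was -0.14 ± 0.14 without WT DSS replicate 2. Ptgis, the prostacyclin synthase, read -0.13, 0.60 and 0.13 in the WT DSS arrays and 0.04, -0.06 and 0.03 in the WT water arrays. Its difference was 0.20 ± 0.23 (limma adjusted p = 0.730). WT DSS replicate 2 was the array farthest from water for both enzymes, below it for Ptges2 and above it for Ptgis.

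Hpgd, the enzyme that inactivates prostaglandin E2, read -0.17, -2.11 and 0.48 in WT DSS replicates 1 to 3, against 0.18, -0.01 and 0.33 in WT water replicates 1 to 3. The 3 DSS arrays lay below, far below and above the water arrays. The difference of -0.77 ± 0.50 (limma adjusted p = 0.501) rested on replicate 2, and without that array it was -0.01 ± 0.19 (limma adjusted p = 0.998). On that array the median of the epithelial markers was -2.13, close to the value of Hpgd. In bulk RNA, fewer cells of a type and less RNA per cell cannot be told apart.

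The receptor genes had small differences in WT. Ptger2, which encodes EP2, a receptor that raises cyclic AMP, read 0.41, 1.14 and 0.12 in the WT DSS arrays and 0.15, -0.03 and -0.13 in the WT water arrays, a difference of 0.56 ± 0.25 (limma adjusted p = 0.333) that was 0.27 ± 0.20 without WT DSS replicate 2. Its replicate 3 lay within the water range and the other 2 DSS arrays above it. Ptger3, which encodes EP3, a receptor that lowers cyclic AMP, read -0.01, -0.32 and -0.38 in the WT DSS arrays and 0.06, -0.02 and 0.55 in the WT water arrays. Its difference was -0.43 ± 0.16 (unadjusted p = 0.0243, limma adjusted p = 0.262), and the groups overlapped through WT DSS replicate 1. Without WT water replicate 3, the highest of the 12 arrays, it was -0.26 ± 0.14 (limma adjusted p = 0.455).

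Ptger4, which encodes EP4, the other receptor that raises cyclic AMP, read -0.20, 0.73 and -0.03 in the WT DSS arrays and 0.21, -0.25 and 0.25 in the WT water arrays. Ptger1, which encodes EP1, a receptor that raises calcium, read -0.15, 0.59 and 0.02 in the WT DSS arrays and 0.08, -0.03 and -0.06 in the WT water arrays. Both had their highest value of the 12 arrays in WT DSS replicate 2, with the other DSS arrays among or below the water values. The differences were 0.09 ± 0.23 for Ptger4 (limma adjusted p = 0.894; 95% interval -0.42 to 0.61) and 0.15 ± 0.19 for Ptger1 (limma adjusted p = 0.753; 95% interval -0.26 to 0.57).

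In TG colon under DSS, no member's mean lay more than 0.63 log2 units from its mean on water. Ptgs2 read 1.40, -0.56 and 0.05 in TG DSS replicates 1 to 3, against -0.31, -0.23 and -0.45 in TG water replicates 1 to 3. Replicate 1 lay far above the water arrays and replicate 3 slightly above them, while replicate 2 was the lowest of all 12 arrays. The difference was 0.63 ± 0.81 (SE; 95% interval -1.18 to 2.44; limma adjusted p = 1), and without TG DSS replicate 1 it was 0.07 ± 0.87. The interval spans 0 and is wide, so the arrays do not show that Ptgs2 was unaffected in TG mice.

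Ptges read 0.72, -0.21 and -0.12 in TG DSS replicates 1 to 3, against -0.44, 0.01 and -0.01 in TG water replicates 1 to 3, with replicate 1 again the high array. The difference was 0.27 ± 0.80, and without replicate 1 it was -0.02 ± 0.92 (limma adjusted p = 1 for both). Hpgd read -0.48, -0.09 and -0.12 with DSS and 0.26, 0.08 and 0.01 with water in TG, so every DSS array lay below every water array. Its difference was -0.35 ± 0.50 (limma adjusted p = 1). Hpgd was the 1 gene of 9 whose TG groups did not overlap, where 13.4% of all genes did not overlap. The remaining 6 members differed by at most 0.20 log2 units.

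The synthases Ptgis and Ptges2 had overlapping TG groups. Ptgis read 0.39, -0.27 and -0.03 in TG DSS replicates 1 to 3, against -0.18, -0.50 and 0.15 in TG water replicates 1 to 3, and its difference was 0.20 ± 0.23. Ptges2 read -0.21, 0.01 and 0.20 with DSS and 0.02, 0.14 and -0.18 with water, so both groups lay around 0. Among the receptors, Ptger2 read 0.30, -0.44 and -0.21 with DSS and -0.19, -0.22 and 0.03 with water, and TG DSS held both its highest and its lowest TG array. Its difference was 0.01 ± 0.25 (95% interval -0.55 to 0.58).

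Ptger1 was the receptor gene with the largest TG difference, -0.16 ± 0.19, from 0.26, -0.10 and -0.08 with DSS against -0.02, 0.18 and 0.40 with water. Ptger3 read 0.15, -0.10 and 0.01 with DSS and -0.16, 0.02 and 0.19 with water. Ptger4 read -0.04, 0.16 and 0.02 with DSS and 0.30, -0.02 and -0.14 with water. For Ptger3 and Ptger4 the TG DSS arrays lay inside the range of the TG water arrays, and the 95% intervals of their differences were -0.36 to 0.37 and -0.52 to 0.52.

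None of the 9 genes passed for DSS in TG, where 0% of all genes passed, and none had an unadjusted p under 0.05, against 2.38% of all genes. As in the other comparisons, the SE draws on the spread of all 4 groups, the WT DSS arrays included. With the TG arrays fitted alone, the difference of Ptgs2 was 0.63 ± 0.44 (limma adjusted p = 0.800).

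**Figure D2:**
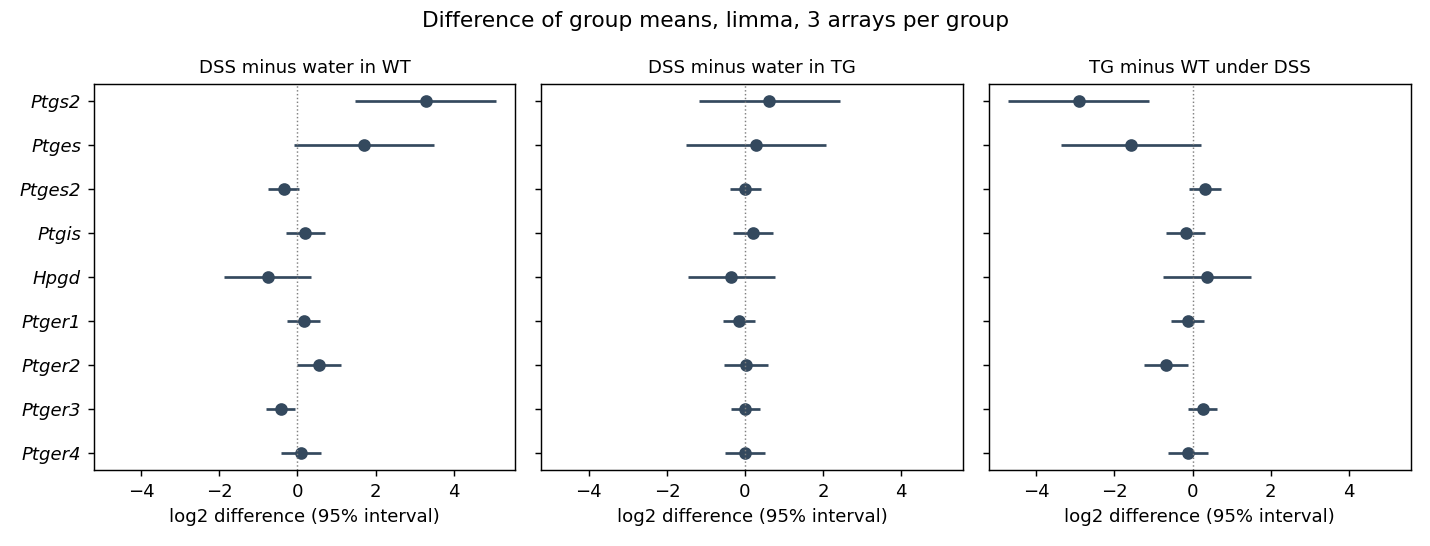
Differences of group means on the log2 scale (horizontal axis) with 95% intervals for the 9 genes in 3 comparisons, from limma with 3 arrays per group. The intervals use 1 spread per gene, shared by all 4 groups. The Ptgs2 interval lies above 0 for DSS in WT (1.47 to 5.09) and below 0 for TG minus WT under DSS (-4.72 to -1.10), while for DSS in TG all 9 intervals span 0; no adjusted p was under 0.05.

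Under DSS, TG arrays had less Ptgs2 signal than WT arrays on average. The difference, TG minus WT, was -2.91 ± 0.81 (SE; 7.54-fold lower in TG; 95% interval -4.72 to -1.10; limma adjusted p = 0.155). TG DSS replicate 1, at 1.40, lay above WT DSS replicate 3, at 1.17, so the groups overlapped. Without WT DSS replicate 3 the difference was -3.93 ± 0.58 and passed (limma adjusted p = 0.0237), and without WT DSS replicate 2 it was -1.96 ± 0.62 (limma adjusted p = 0.227), within a range of 0.0237 to 0.520 over all settings.

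Ptges differed by -1.58 ± 0.80 between TG DSS and WT DSS (limma adjusted p = 0.351). It passed without WT DSS replicate 3, at -2.68 ± 0.48 (limma adjusted p = 0.0457), where 164 of all genes passed. Without replicate 2 it stood at -0.54 ± 0.53 (limma adjusted p = 0.759). These were the ends of its range. Ptger2 read 0.30, -0.44 and -0.21 in TG DSS replicates 1 to 3, against 0.41, 1.14 and 0.12 in WT DSS replicates 1 to 3. TG DSS replicate 1 lay among the WT arrays and the other 2 TG arrays below them. Its difference was -0.67 ± 0.25 (unadjusted p = 0.0240, limma adjusted p = 0.247), and it was -0.38 ± 0.20 without WT DSS replicate 2.

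Hpgd was 0.37 ± 0.50 higher in TG DSS than in WT DSS (limma adjusted p = 0.763). That sign turned without WT DSS replicate 2, to -0.39 ± 0.19. Ptges2 differed by 0.32 ± 0.18, Ptger3 by 0.26 ± 0.16, Ptgis by -0.17 ± 0.23, Ptger1 by -0.13 ± 0.19 and Ptger4 by -0.12 ± 0.23, with limma adjusted p-values from 0.395 to 0.847. Of the 9 genes 0 passed, where 0.0401% of all genes passed. Ptgs2 and Ptger2 had an unadjusted p under 0.05, against 15.9% of all genes. No member had groups that did not overlap, against 19% of all genes. This comparison and DSS against water in WT share the 3 WT DSS arrays.

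**Figure D3:**
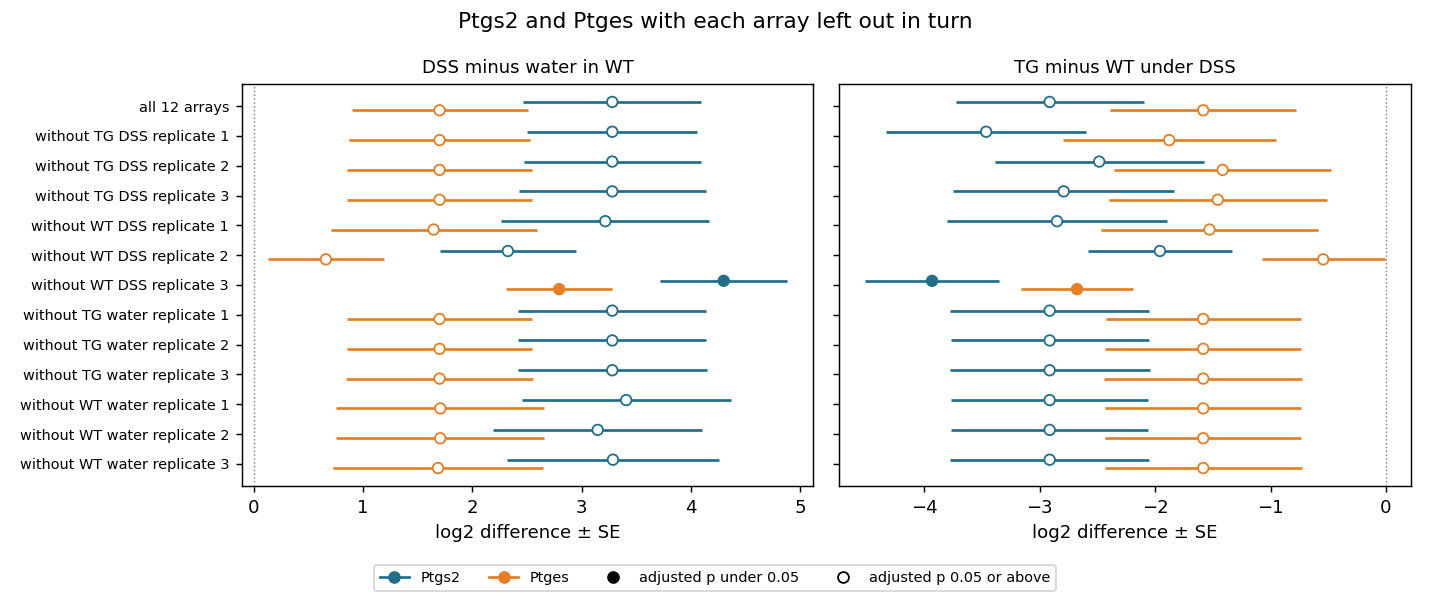
Log2 differences ± SE (horizontal axis) for Ptgs2 and Ptges with all 12 arrays and with each array left out in turn, for DSS minus water in WT and for TG minus WT under DSS. Filled symbols, with an adjusted p under 0.05, appear only without WT DSS replicate 3, and the smallest differences appear without WT DSS replicate 2. Without WT DSS replicate 3, 575 of all genes passed for DSS in WT and 164 for TG minus WT under DSS.

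The difference between the genotypes in their response to DSS was tested as an interaction, the DSS effect of TG less the DSS effect of WT. For Ptgs2 it was -2.65 ± 1.15 (SE; 95% interval -5.21 to -0.094; unadjusted p = 0.0435; limma adjusted p = 0.836). Ptges stood at -1.43 ± 1.14 and Ptger2 at -0.54 ± 0.36, while Ptger3 stood at 0.44 ± 0.23 and Hpgd at 0.42 ± 0.71. These values moved with single arrays: without WT DSS replicate 2 the interaction was -1.70 for Ptgs2, -0.39 for Ptges, -0.25 for Ptger2 and -0.34 for Hpgd, and without WT DSS replicate 3 it was -3.67, -2.52, -0.76 and 0.95. For Ptger3 it was 0.27 without WT water replicate 3. No member passed, where 0% of all genes passed, and 1 of 9, Ptgs2, had an unadjusted p under 0.05, against 5.85% of all genes. These arrays therefore do not settle whether the prostaglandin genes responded differently in the 2 genotypes.

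On water, no member passed between the genotypes. Ptgs2 read -0.31, -0.23 and -0.45 in TG water replicates 1 to 3, against 0.19, -0.33 and -0.05 in WT water replicates 1 to 3, a difference of -0.26 ± 0.81 (limma adjusted p = 1). Its SD was 0.11 in TG water and 0.26 in WT water, and the SE draws on the DSS arrays as well. The largest differences among the receptors were -0.18 ± 0.16 for Ptger3 and 0.18 ± 0.19 for Ptger1, and Ptgis stood at -0.18 ± 0.23 (limma adjusted p = 1 for each). With arrays weighted by their spread, Ptgis stood at -0.43 ± 0.11 and passed (limma adjusted p = 0.0409), where 1971 of all genes passed. In the unweighted fit 0 of 9 genes passed in limma, where 0% of all genes passed, 0 had an unadjusted p under 0.05, against 0.306%, and 0 had groups without overlap, against 4.98%.

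Markers of other cell types were set beside the 3 genes with the widest range. Both Ptgs2 and Ptges were highest in WT DSS replicate 2, next in WT DSS replicate 1 and then in TG DSS replicate 1. The neutrophil markers (10 of 12 measured) had a median of 0.52, -0.05 and -0.02 on TG DSS arrays 1 to 3 and of 1.79, 3.88 and 0.17 on WT DSS arrays 1 to 3, against -0.17 to 0.03 in the 6 water arrays. Macrophage and monocyte markers (9 of 11 measured) stood at 0.86, -0.32 and -0.13 in TG DSS and at 1.03, 2.22 and -0.20 in WT DSS, against -0.38 to 0.17 on water. The medians of these lists were high on the arrays where Ptges was high. In TG DSS replicate 1, 4 of 10 neutrophil and 1 of 9 macrophage and monocyte markers were over 1, and 0 were under -1.

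Fibroblast markers (10 of 10 measured) stood at 0.85, -0.34 and -0.16 in TG DSS and at 1.08, 2.19 and -0.26 in WT DSS, against -0.52 to 0.13 on water. Endothelial markers (10 of 10) stood at 0.48, -0.24 and -0.21 in TG DSS and at 0.79, 3.21 and -0.29 in WT DSS, against -0.30 to 0.24 on water. All 10 fibroblast and all 10 endothelial markers were more than 1 log2 unit above their median in WT DSS replicate 2, and all 10 epithelial markers were more than 1 below it. On that array 7 of 10 neutrophil markers were over 1 and 1 was under -1, and 7 of 9 macrophage and monocyte markers were over 1. In WT DSS replicate 3, Ptgs2 stood at 1.17 while the neutrophil, macrophage, fibroblast and endothelial medians were 0.17, -0.20, -0.26 and -0.29. Members of the neutrophil list differed there, with Retnlg at 1.22 and S100a9 at 0.94, chosen after their values were seen, and 1 of the 10 was over 1 and 1 under -1. Mast cell and T and NK cell medians stayed between -0.19 and 0.31 on all arrays, and tuft cell medians between -0.10 and 0.51. Single markers went further in WT DSS replicate 3. There 3 of 10 mast cell, 3 of 10 T and NK cell and 3 of 8 tuft cell markers were over 1, and 0 were under -1. The smooth muscle median was lowest, at -1.04, in WT DSS replicate 1, the platelet median was highest, at 1.76, in WT DSS replicate 2, and the B and plasma cell median ranged from -0.93 to 0.92 with no order by group. The part of other cell types in the values of Ptgs2, Ptges and Hpgd was not tested.

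**Figure D4:**
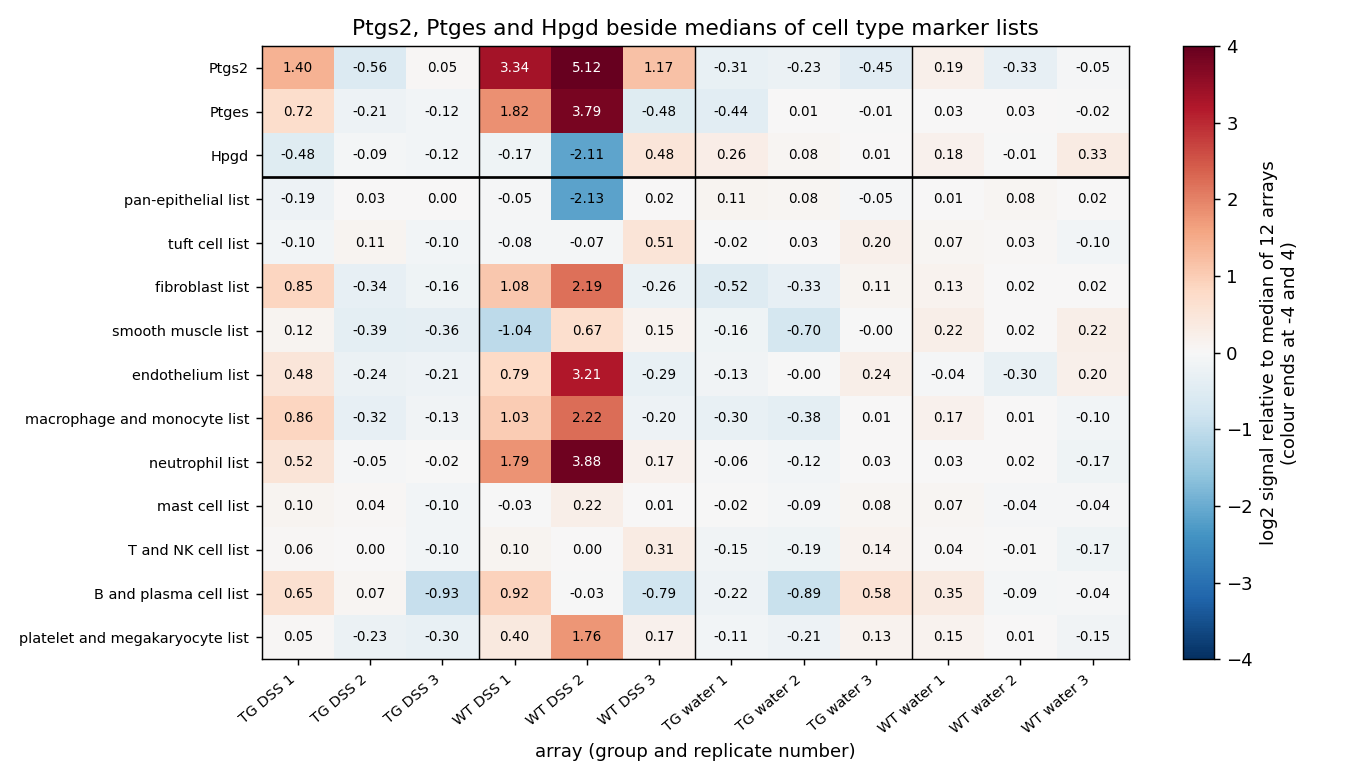
Log2 signal of Ptgs2, Ptges and Hpgd (top rows) and the median of each of 11 marker lists (lower rows) on every array (columns), centred on the median over arrays; red is above and blue below it. In WT DSS replicate 2, Ptgs2 stands at 5.12, Hpgd at -2.11, the neutrophil median at 3.88 and the epithelial median at -2.13.

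The genes whose values lay closest to each of these 3 over the 12 arrays were found by the root mean square difference, in log2 units. For Ptgs2 they were Retnlg at 0.26, Clec4e at 0.27, Lilr4b at 0.28, Ereg at 0.29 and S100a9 at 0.31. Retnlg and S100a9 are abundant in neutrophils, Clec4e encodes a myeloid pattern receptor and Ereg encodes the growth factor epiregulin. For Ptges they were Bmp7 at 0.21, Sod3 at 0.21, Eng at 0.23, Icam1 at 0.24 and Cxcl5 at 0.25. For Hpgd they were Clcn2 and Sh3yl1 at 0.13, Cdhr5 and Erbb3 at 0.14 and Erbb2 at 0.15, where Cdhr5 encodes a brush border protein and Erbb2 and Erbb3 encode growth factor receptors. Retnlg and S100a9 also belong to the neutrophil list and Eng to the endothelial list. The 5 genes closest to Hpgd stood at -2.26 to -1.88 in WT DSS replicate 2 and between -0.36 and 0.43 on every other array. Their likeness to Hpgd therefore rests largely on 1 array. Those closest to Ptgs2 and Ptges were all highest in WT DSS replicate 2 and next in WT DSS replicate 1.

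Other genes of the pathway, taken from 6 lists that count some older symbols beside newer ones, had no member that passed in any of the 5 comparisons. In WT under DSS the list of inducers and messenger regulators of Ptgs2 and Ptges had a median difference of 0.65 over its 14 measured genes, beside -0.04 over all genes, and 13 of the 14 were above 0. The list does not part genes that raise Ptgs2 from genes that lower it, so a positive median is not a measure of induction. Il1b, a cytokine that induces Ptgs2, read 4.79, 5.44 and 1.93 in WT DSS replicates 1 to 3, against 0.03, 0.18 and -0.27 in WT water replicates 1 to 3. Its difference was 4.07 ± 0.86 (limma adjusted p = 0.0813), with every DSS array above every water array. In this list 8 of the 14 genes had WT groups that did not overlap, against 16.1% of all genes. Il1a stood at 3.79 ± 0.82 (limma adjusted p = 0.0839), and Tnf at 1.54 ± 0.25 (limma adjusted p = 0.0511).

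Under DSS the same cytokines were lower in TG than in WT on average. The TG minus WT differences were -3.40 ± 0.86 for Il1b, -3.43 ± 0.82 for Il1a and -0.96 ± 0.25 for Tnf. None of them passed (limma adjusted p = 0.134, 0.130 and 0.135). The Il1b groups overlapped, since TG DSS replicate 1, at 2.32, lay above WT DSS replicate 3, at 1.93. Il1a and Tnf were among the 4 of 14 genes whose groups did not overlap, against 19% of all genes. Il1b read 2.32, -0.32 and -0.03 in TG DSS replicates 1 to 3, so the array with the high Ptgs2 value in that group was also high for Il1b. For DSS in TG the list had a median of 0.13, beside -0.01 over all genes, and 12 of the 14 were above 0.

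Among the phospholipases and lipases that release arachidonic acid, 17 of 18 were measured, with a median of -0.06 for DSS in WT, 6 genes above 0 and 0 passing. Pla2g2f, a secreted phospholipase, read -0.34, -2.26 and -2.17 in WT DSS replicates 1 to 3, against 0.15, -0.04 and 0.35 in WT water replicates 1 to 3, with no overlap. Its difference was -1.75 ± 0.41 (limma adjusted p = 0.102). Pla2g3, a further secreted phospholipase, read -0.20, -1.13 and -0.60 in the WT DSS arrays and 0.11, 0.61 and 0.11 in the WT water arrays, again with no overlap. Its difference was -0.92 ± 0.28 (limma adjusted p = 0.175). Pla2g2f and Pla2g3 were the 2 of 17 genes whose WT groups did not overlap, where 16.1% of all genes did not overlap. Mgll, the monoacylglycerol lipase, read -0.16, 2.18 and 2.16 in the WT DSS arrays and 0.04, 0.02 and 0.38 in the WT water arrays, a difference of 1.25 ± 0.55 (limma adjusted p = 0.315). For Mgll the groups overlapped through WT DSS replicate 1.

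Pla2g5, another secreted phospholipase, had the smallest p of its list for DSS in TG. It read 0.67, 0.70 and 1.04 in TG DSS replicates 1 to 3, against -0.52, -0.46 and -0.15 in TG water replicates 1 to 3. All 3 DSS arrays were above all 3 water arrays, by a mean of 1.18 ± 0.30 (limma unadjusted p = 0.00295, limma adjusted p = 1). Pla2g5 was 1 of 2 genes in its list of 17 whose TG groups did not overlap, where 13.4% of all genes did not overlap. In WT it stood at -0.48 ± 0.30, and the interaction was 1.66 ± 0.43 (unadjusted p = 0.00303; limma adjusted p = 0.797).

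The other prostanoid synthases (8 of 10 measured) had a median of -0.21 for DSS in WT, with Gstm2 at -0.55 ± 0.16, Hpgds, which makes prostaglandin D2, at -0.70 ± 0.31 and the thromboxane synthase Tbxas1 at 0.39 ± 0.27. The transport and breakdown list (8 of 9) had a median of -0.09, and Ptgr1, a reductase that continues the breakdown Hpgd begins, stood at -0.75 ± 0.21 (limma adjusted p = 0.157), a gene that the lipoxygenase list also holds. The other prostanoid receptors (7 of 8) had a median of 0.08. Ptgir, the prostacyclin receptor, read 0.16, 1.34 and -0.04 in the WT DSS arrays, a difference of 0.49 ± 0.31, and Ptgfr, the receptor for prostaglandin F2 alpha, stood at 0.61 ± 0.30. No gene of these 3 lists passed.

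The neighbouring lipoxygenase branch turns the same arachidonic acid into leukotrienes, and 13 of its 14 genes were measured, with a median of 0.03 for DSS in WT and 0 passing. Alox5ap, which presents arachidonic acid to 5-lipoxygenase, read 1.51, 3.21 and 0.35 in WT DSS replicates 1 to 3, against 0.21, 0.01 and -0.06 in WT water replicates 1 to 3. Every DSS array was above the water arrays, in the same order as for Ptgs2, and the difference was 1.63 ± 0.57 (limma adjusted p = 0.227). In this list 3 genes were higher without overlap and 1 was lower without overlap, where 16.1% of all genes did not overlap. Lta4h, the enzyme that makes leukotriene B4, stood at -0.32 ± 0.14.

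**Figure D5:**
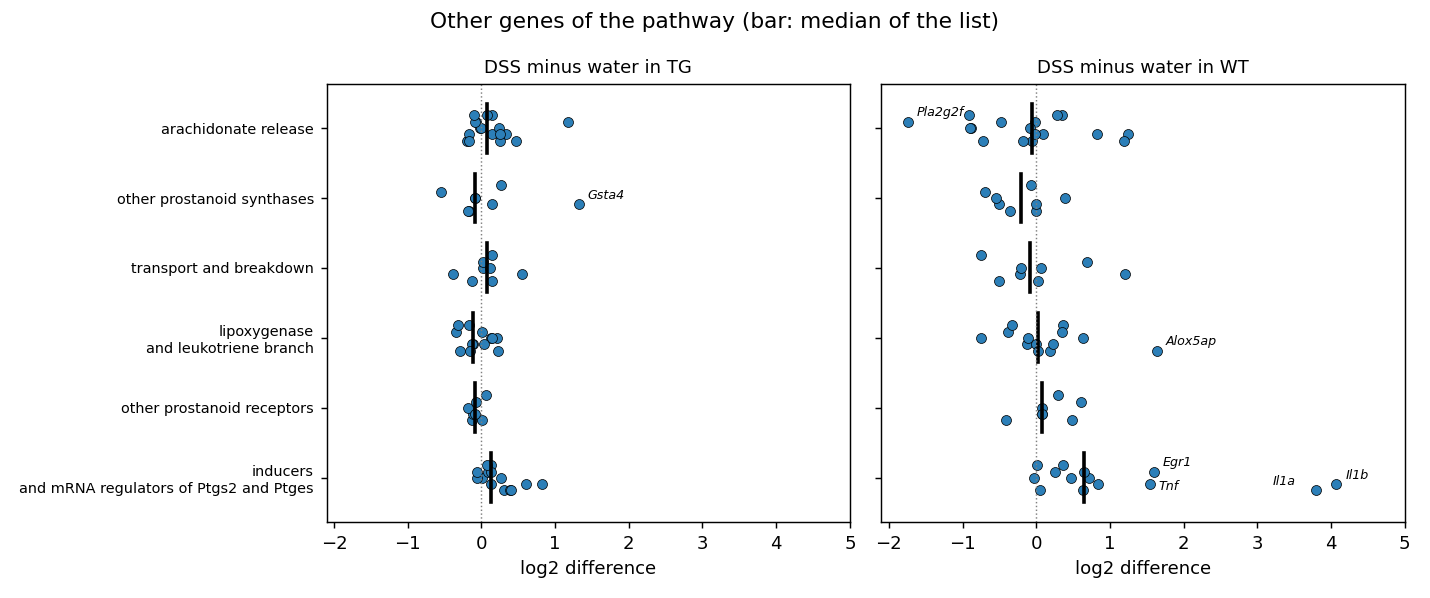
Log2 differences (horizontal axis) of the measured genes in 6 lists of the pathway for DSS minus water in TG (left) and in WT (right), 1 point per gene, with a bar at each list's median. The list of inducers and messenger regulators has its median at 0.13 in TG and 0.65 in WT. Genes beyond 1.3 log2 units are named, and none of the genes passed.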

How the data were processed

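Affymetrix arrays of 12 samples were analysed, 3 per group. Per the submitters' processing notes, the authors used RMA and Affymetrix Expression Console, with no version stated. RMA works in log2, so the deposited values were read as log2, although no source names the base. Each of the 28815 probe sets has a median of 0 over the 12 arrays to within 5e-07, so the deposited log2 values are centred, a step found from the values. They carry no depth, and the number of arrays limits the precision.

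Probe sets with 1 symbol (21780) were averaged per gene, giving 19935 genes; the 1605 with several symbols and 5430 with none were left out. The fit, 1 mean for each group over the 12 arrays, used lmFit and eBayes of limma 3.58.1 (R 4.3.3), tested on simulated data, with two-sided p-values adjusted by Benjamini-Hochberg over all genes. Each simulated gene had the same spread on all 12 arrays, so the simulation does not cover the wider spread of the WT DSS arrays. No filter on dim probe sets was possible without absolute levels. The 5 comparisons are DSS minus water in each genotype, TG minus WT under each treatment, and the interaction. Permutation of 3 against 3 arrays cannot go below p = 0.1 and was not used. Figures used Python 3.11.15 and matplotlib 3.10.9.

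All members are named; of each pathway list, genes that passed and up to 3 with the smallest p per comparison; and the 5 genes closest to each member spanning over 2 log2 units. Members and lists were chosen with earlier results of these data known. Alternatives tried were the groups compared alone, the replicate number as a block, arrays centred on their medians, weights per array, robust eBayes, single probe sets, and each array left out.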

Additional observations from a re-analysis of the deposited data

How the results depend on the processing

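Of 801 recomputed differences of members, 744 kept their direction and side of the threshold, 50 changed sign and 7 passed, where no member had passed in any comparison of the report. Many of the 801 could not change sign. The groups alone, the replicate block, robust eBayes and single probe sets leave a member's difference as it was. So does leaving out an array of a group not compared. The 744 are therefore no measure of stability. With weights per array 1 member passed for DSS in WT (Ptgs2, 2.88), 1 for TG minus WT under DSS (Ptgs2, -2.99) and 1 for TG minus WT at water (Ptgis, -0.43, adjusted p = 0.0409). These weights ran from 0.10 for WT DSS replicate 2 to 7.15 for WT water replicate 1. Leaving out each array gave 0 to 2 members for DSS in WT, 0 to 2 for TG minus WT under DSS and 0 in the other comparisons. The 2 were Ptgs2 and Ptges without WT DSS replicate 3. In that setting 575 of all genes passed for DSS in WT and 164 for TG minus WT under DSS. Leaving out WT DSS replicate 1 gave the highest counts over all genes in both comparisons, and no member passed there.

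Counts over all genes moved more. For DSS in WT, 34 genes passed, against 0 with the WT groups alone, 0 with the replicate block, 754 with weights per array, 105 probe sets on their own and 0 to 919 with an array left out (919 without WT DSS replicate 1). For TG minus WT under DSS, 8 passed, against 0 with the groups alone, 0 with the block, 4 with arrays centred, 273 with weights and 0 to 1166 with an array left out (1166 without WT DSS replicate 1). Weights gave 1971 genes for TG minus WT at water, 4 for DSS in TG and 12 for the interaction, where 0 had passed, and leaving out an array gave 0 to 239 for the interaction (239 without WT DSS replicate 1). The cause of these shifts was not tested.

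The sign changes lay in 18 differences that did not pass. With an array left out, DSS in WT ranged from -0.064 to 0.31 for Ptger1, -0.19 to 0.28 for Ptger4 and -0.0015 to 0.37 for Ptgis. DSS in TG ranged from -0.19 to 0.18 for Ptger2, -0.081 to 0.095 for Ptger3, -0.095 to 0.13 for Ptger4, -0.021 to 0.44 for Ptges and -0.091 to 0.12 for Ptges2. TG minus WT under DSS ranged from -0.39 to 0.91 for Hpgd, -0.28 to 0.092 for Ptger1, -0.30 to 0.16 for Ptger4 and -0.35 to 0.030 for Ptgis. TG minus WT at water ranged from -0.14 to 0.032 for Hpgd, -0.18 to 0.072 for Ptger4 and -0.12 to 0.043 for Ptges2. The interaction ranged from -0.34 to 0.95 for Hpgd, -0.28 to 0.19 for Ptger4 and -0.18 to 0.21 for Ptgis. Weights per array turned Hpgd (-0.013), Ptger1 (0.034) and Ptger4 (0.18) for TG minus WT under DSS, Ptger1 (-0.14), Ptger4 (-0.27) and Ptgis (-0.058) for DSS in WT, Ptger2 (-0.017), Ptger4 (0.028) and Ptges2 (-0.039) for DSS in TG, Ptges2 (0.10) at water and Ptger4 (0.30) in the interaction. Centring the arrays turned Ptger4 for DSS in TG (0.0089) and Ptgis in the interaction (-0.018). The cause was not tested.

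Of 18 pairs of same-numbered arrays in 2 groups, 1 had a correlation of deviations over 0.1 across genes, and the range was -0.48 to 0.38. Arrays with different numbers were not compared in this way, so whether the replicate numbers pair the arrays is not settled. With the replicate block, Ptgs2 stood at 3.28 ± 0.80 for DSS in WT, and no member passed. The filter on dim probe sets was not run. Without a WT DSS array, the spread rests on fewer WT DSS arrays, which are assumed to vary like the rest.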
